A study of Homo sapiens with 12 samples.

Results

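OCI-LY1, a human diffuse large B-cell lymphoma line, was compared 10 days after transduction with delta27-BCL7A, a form of BCL7A altered at its amino terminus, or with an empty vector. The comparison rests on 4 of the 12 libraries of the study, 2 with delta27-BCL7A and 2 with empty vector, taken by cell line and construct from the sample labels. BCL7A is a subunit of the SWI/SNF (BAF) complexes, which use ATP to move and evict nucleosomes and so set which promoters and enhancers are open. Its gene is recurrently mutated in germinal centre lymphomas, with many of the changes falling in the amino-terminal domain.

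The other libraries gave 2 reference groups. OCI-LY1 cells with wild-type BCL7A (2 libraries) were collected on the same day, and VAL, a second diffuse large B-cell lymphoma line, was collected with empty vector and with delta27-BCL7A (2 libraries each) on day 17. All cells of every group, controls included, had gone through 3 infection cycles at a multiplicity of 2 and had been sorted for the ZsGreen1 reporter that the vector carries behind an internal ribosome entry site. The BCL7A groups received the short and the long isoform together. Both libraries of a group came from independent transductions, so the spread between them includes transduction and sorting. Polyadenylated RNA was read in a stranded preparation.

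The OCI-LY1 libraries held between 22540785 and 23520938 reads in genes, and replicates correlated across genes at 0.993 to 0.994 (Pearson, log2 CPM). The B cell identity of the line was plain from its markers. All 7 B cell markers, MS4A1, CD79A and PAX5 among them, were above 1 CPM, and their sum lay at 3117 and 3125 CPM with empty vector and at 3192 and 3203 CPM with delta27-BCL7A. CPM is a gene's read count relative to the size of its library, with library sizes scaled by the trimmed mean of M values (TMM). Markers of other lineages were at or near 0: the 7 myeloid markers summed to at most 0.254 CPM and the 5 erythroid markers to at most 0.0423 CPM in these 4 libraries. T cell markers summed to 13.9 and 13.8 CPM with empty vector and to 12.9 and 13.0 CPM with delta27-BCL7A, nearly all of it TRAC, with CD2 and CD3D at 0 in all 4 libraries. EPCAM, at 25.8 and 23.2 CPM with empty vector and 22.3 and 20.3 CPM with delta27-BCL7A, carried the epithelial sum, with KRT19 at 0. Over 38 autosomal genes that VAL expressed at 5 CPM or more and that had no count with empty vector, the delta27-BCL7A libraries held 13 and 9 reads in all.

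BCL7A (ENSG00000110987, chr12:122019422-122062044, plus strand, GRCh38) checked the labels. Its level was 155 and 157 CPM with empty vector and 573 and 588 CPM with delta27-BCL7A, a 3.72-fold rise that passed the quasi-likelihood test of edgeR at an adjusted p of 1.92e-26, with a log2 fold change of 1.89 and an SE of 0.05. The groups were far apart, and both delta27-BCL7A libraries lay beside the wild-type libraries, at 576 and 578 CPM. Against the wild type the log2 difference was 0.01, with a 95% interval from -0.08 to 0.10. The counts cannot divide these reads between the vector and the cell's own gene, or between mutant and normal sequence.

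Of 26 other SWI/SNF subunits tested, 5 were higher and none lower, against 10.4% of all 17057 genes tested that were higher and 9.16% that were lower. PBRM1, the bromodomain subunit that defines the PBAF form of the complex, was the largest of the 5. It measured 115 and 122 CPM with empty vector and 140 and 155 CPM with delta27-BCL7A (log2 fold change 0.31, SE 0.06, edgeR adjusted p = 0.000317). The groups did not overlap, but the fold change fell to 0.16 after a correction for GC content and transcript length, and the number of higher subunits was 5 after that correction and 1 without delta27-BCL7A replicate 2 or without empty vector replicate 1.

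Across the genome the comparison called 3338 of 17057 genes (19.6%) at an edgeR adjusted p under 0.05, 1776 higher and 1562 lower with delta27-BCL7A. Most of the changes were small. The median log2 fold change was 0.28 among the higher genes and -0.35 among the lower ones, and 39 rose and 180 fell past a log2 fold change of 1. The median over all genes was -0.03. Protein-coding genes alone gave 1678 higher and 1246 lower (10.2%) of 12244 tested. Libraries of the 2 groups did not overlap in 58% of all genes tested, the background for each statement on overlap below. Among the 3338 genes called, 3335 did not overlap. For some named genes this was also a condition of choice, so it adds no support to a call. Leaving out 1 library changed the number of calls, to 2002 or 2068 when it was empty vector replicate 1 or 2 and to 1265 when it was delta27-BCL7A replicate 2. DESeq2 called 2468 genes and put 63.5% of them on the higher side, against 53.2% in the edgeR fit. In bulk RNA, fewer cells of a kind and less RNA per cell cannot be told apart.

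Library quality measures moved with the groups and were read beside the results. Reads set aside for low alignment quality made up 4.80% and 6.90% with empty vector and 3.92% and 3.01% with delta27-BCL7A, and reads aligned to several places 8.39% and 9.49% against 7.67% and 7.60%. Transcript base composition moved as well. Genes called higher had a median GC content of 39.6% and genes called lower of 56.4%, against 48.2% for all genes tested, and the median lengths of their longest transcripts were 4764 and 2601 bases, against 2899. When genes were divided into 5 equal bins of GC content, 33.5% were higher and 0.978% lower in the lowest bin, and 0.682% were higher and 20.9% lower in the highest.

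Single libraries differed in this respect. Across 12618 genes, the Spearman correlation of a library's deviation from the mean of the 6 OCI-LY1 libraries with GC content was 0.32 and 0.54 with empty vector, 0.07 and -0.11 with wild-type BCL7A, and -0.24 and -0.62 with delta27-BCL7A, with delta27-BCL7A replicate 2 the lowest. These correlations describe genes that share libraries and carry no p. After the correction for GC content and length 2793 genes were called (16.4%; 8.64% of all genes higher and 7.73% lower), and 1697 of the 3338 remained called in the same direction, 889 higher and 808 lower. The base composition of promoters did not separate the groups in the same way: the 250 bases before the start had a median GC content of 65.2% for higher and 65.6% for lower protein-coding genes. What part the library differences had in the calls was not tested, so the counts of the gene groups are also given after the correction and without delta27-BCL7A replicate 2, where 7.14% of 17721 genes were called, 4.69% higher and 2.45% lower.

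Processed pseudogenes, copies of messenger RNAs inserted back into the genome, stood out by gene type. Of 1157 tested, 166 were lower and 3 higher, with a median log2 fold change of -0.52 against -0.03 for all genes. Their summed level was 1950 and 2273 CPM with empty vector and 1603 and 1516 CPM with delta27-BCL7A, so the groups did not overlap. The libraries with the larger shares of low-quality alignments were those with the higher sums, and the part of alignment in the difference was not tested. After the correction 109 were lower and 3 higher (median -0.39), and without delta27-BCL7A replicate 2 the counts were 35 lower and 1 higher.

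Targets of the tumour suppressor p53 were more often higher than lower. p53 switches on genes for growth arrest, DNA repair and cell death, and MDM2 in turn marks p53 for destruction. Of 29 targets tested, 12 were higher and 2 lower, with a median log2 fold change of 0.08. The counts were the same after the GC and length correction, and 9 higher and 1 lower without delta27-BCL7A replicate 2. Leaving out any 1 of the 4 libraries gave 9 to 12 higher.

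ZMAT3 (chr3:179017223-179072279, minus strand), an RNA-binding zinc finger protein, measured 150 and 151 CPM with empty vector and 246 and 242 CPM with delta27-BCL7A. It rose 1.62-fold (log2 fold change 0.70, SE 0.05, edgeR adjusted p = 7.29e-12), and by 0.51 after the correction. MDM2 rose from 353 and 360 CPM to 512 and 525 CPM (0.54, SE 0.05, edgeR adjusted p = 2.58e-10). The wild-type libraries stood beside the mutant ones, ZMAT3 at 259 and 243 CPM and MDM2 at 511 and 514 CPM. The ZMAT3 difference between mutant and wild type was -0.04, with a 95% interval from -0.15 to 0.06. Of the 29 targets, 4 were lower with the mutant than with the wild type and none higher, against 1.68% and 1.38% of all genes.

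Among the other p53 targets, RRM2B, a ribonucleotide reductase subunit used for DNA repair, rose from 163 and 171 CPM to 217 and 237 CPM. AEN, a nuclease that acts in apoptosis, rose from 101 and 104 CPM to 129 and 130 CPM. PLK2, a polo-like kinase, rose from 5.197 and 7.03 CPM to 10.1 and 10.9 CPM, the largest change of the list (log2 fold change 0.78, SE 0.13, edgeR adjusted p = 3.90e-05). In each of these 3 genes both mutant libraries lay above both empty vector libraries. PMAIP1, which encodes the pro-apoptotic protein NOXA and is counted with the BCL2 family, rose from 128 and 125 CPM to 157 and 173 CPM (0.38, SE 0.05, edgeR adjusted p = 1.86e-06). Of the 17 BCL2 family genes tested, 3 were higher and 2 lower, 5 and 0 after the correction, and 1 and 0 without delta27-BCL7A replicate 2.

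**Figure D1:**
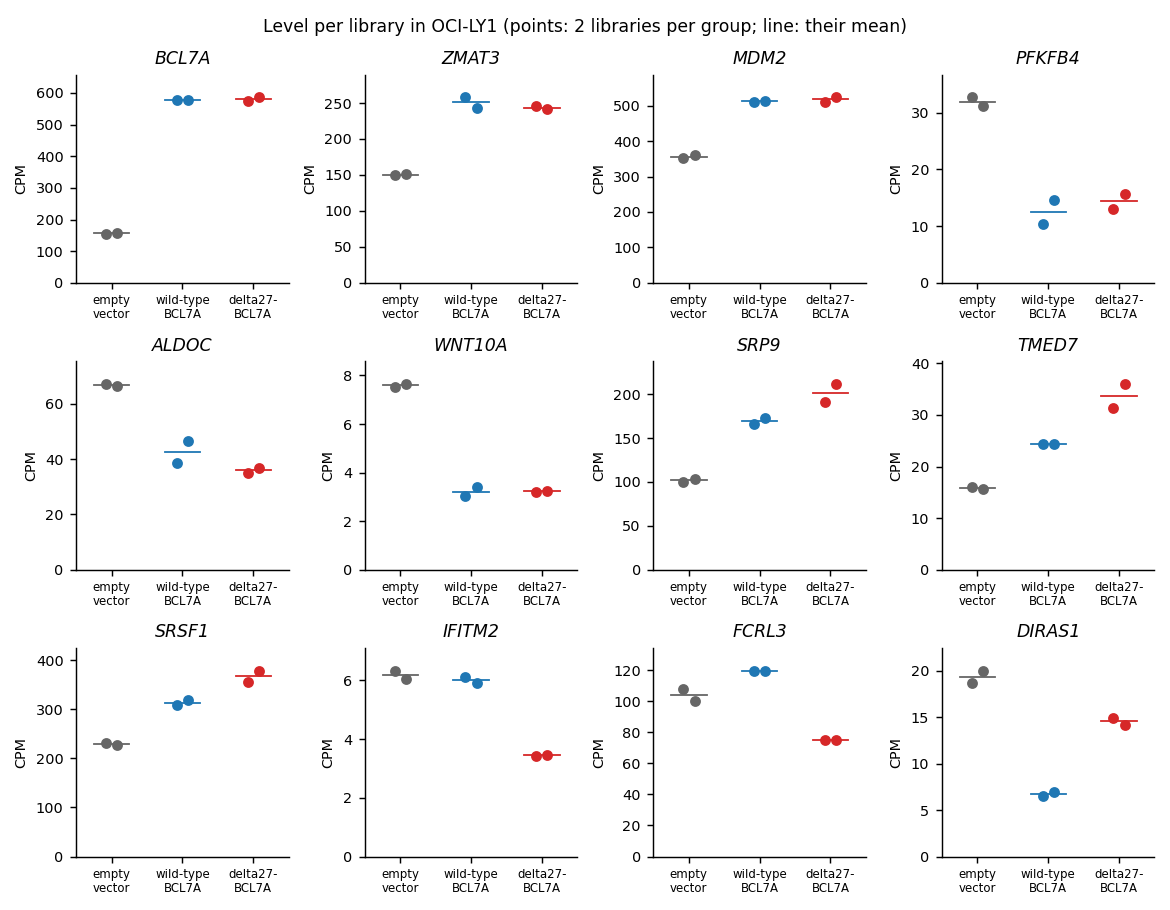
CPM of 12 genes in each OCI-LY1 library, with every axis starting at 0; points are the 2 libraries of a group and lines their mean. In all 12 genes the empty vector and delta27-BCL7A libraries do not overlap. In ALDOC, SRP9, TMED7, SRSF1, IFITM2, FCRL3 and DIRAS1 the wild-type libraries also lie apart from the mutant ones. The ALDOC difference between mutant and wild type did not pass the test (edgeR adjusted p = 0.0738).

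In the list of glycolysis and the hypoxia response, 13 of 33 genes tested fell and 1 rose. Under low oxygen, hypoxia-inducible factors bind an ACGTG core and switch on glucose uptake, glycolysis, lactate export and vessel growth. The median log2 fold change of the list was -0.17. After the correction 15 were lower and 2 higher (median -0.12), and without delta27-BCL7A replicate 2 the counts were 11 and 0. Leaving out any 1 of the 4 libraries gave 9 to 11 lower. ALDOC, the brain-type fructose bisphosphate aldolase, is shown by its promoter because it was among the list's strongest falls and its 250 bases before the start hold the core more than once. The capitals mark ACGTG on either strand.

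ALDOC: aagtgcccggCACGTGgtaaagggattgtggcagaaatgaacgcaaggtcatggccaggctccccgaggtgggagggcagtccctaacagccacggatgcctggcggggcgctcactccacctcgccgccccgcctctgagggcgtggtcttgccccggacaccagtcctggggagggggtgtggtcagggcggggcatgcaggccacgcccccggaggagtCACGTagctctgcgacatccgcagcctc

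The sequence is RefSeq's, GRCh38.p14, chr17:28576896-28577145, minus strand, printed 5′ to 3′ along the gene. Its first match starts 240 bases before the start, where ACGTG read on both strands forms an E-box (CACGTG), and its last 28 bases before it. Of the 29 list members with a promoter in the RefSeq table, 13 (44.8%) held ACGTG in these 250 bases, as did 6 of the 11 lower members, against 23.4% of the 9939 protein-coding genes tested that matched and 18.7% of all 27305 promoters. Such a match is a description of the letters, not of a binding site.

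ALDOC measured 67.3 and 66.6 CPM with empty vector and 35.1 and 36.9 CPM with delta27-BCL7A, a 1.86-fold fall (log2 fold change -0.90, SE 0.07, edgeR adjusted p = 3.98e-11). PFKFB4 (chr3:48517684-48562015, minus strand), which makes the glycolytic activator fructose 2,6-bisphosphate, fell 2.22-fold, from 32.8 and 31.1 CPM to 13.1 and 15.7 CPM (-1.15, SE 0.11, edgeR adjusted p = 2.30e-09). Both groups were tight and well apart. VEGFA, the vascular endothelial growth factor, fell from 37.9 and 34.5 CPM to 19.6 and 21.5 CPM. SLC16A3, the lactate exporter MCT4, fell from 6.29 and 5.48 CPM to 2.29 and 2.88 CPM. In these 4 genes the wild-type libraries were also below both empty vector libraries, with VEGFA at 16.2 and 17.9 CPM and PFKFB4 at 10.4 and 14.6 CPM. The VEGFA difference between mutant and wild type was 0.27, with a 95% interval from 0.08 to 0.46 and an edgeR adjusted p of 0.11.

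ATF4 is the transcription factor that cells use when amino acids run short or the endoplasmic reticulum is stressed, and it drives amino acid synthesis, transport and tRNA charging. Of 28 list members tested, 9 were lower and 1 higher, with a median log2 fold change of -0.14. After the correction 7 were lower and 4 higher, with a median of -0.03, and without delta27-BCL7A replicate 2 the counts were 7 and 1. Without empty vector replicate 1, 5 were lower. Of 20 aminoacyl-tRNA synthetases, which load amino acids onto their tRNAs, 5 were lower and none higher (median -0.04), 6 were lower and 2 higher after the correction, and leaving out 1 library gave 1 to 3 lower (2 without delta27-BCL7A replicate 2). Promoters of 1 gene from each list are shown because they hold the core of the ATF4 composite element, TGATGNAA, which is in capitals on either strand.

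CHAC1: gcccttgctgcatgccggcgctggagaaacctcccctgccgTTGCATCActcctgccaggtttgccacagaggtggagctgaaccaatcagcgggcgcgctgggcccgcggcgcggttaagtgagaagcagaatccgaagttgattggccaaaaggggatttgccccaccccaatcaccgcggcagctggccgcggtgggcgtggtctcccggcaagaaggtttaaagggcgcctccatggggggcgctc
AARS1: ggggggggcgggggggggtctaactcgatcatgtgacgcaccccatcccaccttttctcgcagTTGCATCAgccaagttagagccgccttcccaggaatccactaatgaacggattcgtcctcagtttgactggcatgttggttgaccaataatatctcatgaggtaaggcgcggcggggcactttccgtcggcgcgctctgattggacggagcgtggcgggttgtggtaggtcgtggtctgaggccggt

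Both are RefSeq sequences of GRCh38.p14, CHAC1 at chr15:40953221-40953470 on the plus strand and AARS1 at chr16:70289507-70289756 on the minus strand. The element was in 3 of 23 promoters of the ATF4 list (13.0%) and 2 of 16 of the synthetases (12.5%), against 1.33% of the protein-coding genes tested and 3.19% of all promoters in the table. Among the lower members it was in 1 of 8 and 1 of 5, the genes printed.

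CHAC1, a glutathione-degrading enzyme, fell 3.00-fold, from 5.49 and 4.06 CPM to 1.31 and 1.86 CPM (log2 fold change -1.59, SE 0.34, edgeR adjusted p = 0.00395). AARS1, the alanyl-tRNA synthetase, fell far less, from 325 and 318 CPM to 268 and 268 CPM (-0.26, SE 0.05, edgeR adjusted p = 7.56e-05). Neither gene's groups overlapped. The CHAC1 call was lost when the correction was combined with leaving out delta27-BCL7A replicate 2 (edgeR adjusted p = 0.0828). DDIT4, an inhibitor of mTOR complex 1, measured 58.0 and 71.0 CPM with empty vector and 39.0 and 35.1 CPM with delta27-BCL7A (-0.80, SE 0.07, edgeR adjusted p = 1.68e-09).

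Further members of the list with non-overlapping groups were CTH, which makes cysteine from cystathionine, SESN2, a leucine sensor upstream of mTOR that is also a p53 target, and SHMT2, the mitochondrial serine hydroxymethyltransferase. CTH fell from 15.01 and 12.8 CPM to 9.19 and 9.86 CPM. SESN2 fell from 23.2 and 21.6 CPM to 16.9 and 15.1 CPM. SHMT2 fell from 414 and 401 CPM to 338 and 335 CPM.

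Ribosome biogenesis genes make and process ribosomal RNA in the nucleolus and are driven by MYC. Of 36 tested, 18 were higher and 1, MYC itself, was lower, with a median log2 fold change of 0.15. After the correction 20 were higher and 1 lower, and without delta27-BCL7A replicate 2, or without empty vector replicate 1, 9 were higher.

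DDX21, a nucleolar RNA helicase, rose from 486 and 482 CPM to 597 and 620 CPM (log2 fold change 0.33, SE 0.05, edgeR adjusted p = 1.99e-06). UTP20, of the small-subunit processome, rose from 111 and 114 CPM to 142 and 151 CPM. RRS1, which helps to assemble the large subunit, rose from 46.6 and 50.1 CPM to 61.2 and 60.0 CPM. RRP1B measured 190 and 195 CPM with empty vector and 224 and 230 CPM with delta27-BCL7A (0.24, SE 0.05). All 4 had separate groups. RRS1 and RRP1B have transcripts of 56.3% and 50.6% GC, above the median of the higher genes, and their fold changes were 0.44 and 0.26 after the correction. DDX21 and UTP20, at 41.1% and 42.3% GC, went the other way, from 0.33 and 0.38 to 0.22 and 0.27.

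Of the 57 cytosolic ribosomal proteins, 34 were lower and none higher, with a median of -0.16. The count was 26 lower and 1 higher after the correction, and 7 to 18 lower when 1 library was left out, with delta27-BCL7A replicate 2 giving the 7. RPS15, of the small subunit, fell from 503 and 523 CPM to 434 and 385 CPM (log2 fold change -0.33, SE 0.05, edgeR adjusted p = 2.06e-05). RPL37, of the large subunit, fell from 753 and 740 CPM to 623 and 621 CPM. The groups of these genes did not overlap, and both calls were lost when the correction was combined with leaving out delta27-BCL7A replicate 2 (edgeR adjusted p = 0.107 and 0.121). Ribosomal protein genes have many processed pseudogenes, whose own fall is given above, and the part of shared reads was not tested.

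Translation factors were mixed: of 34 tested, 6 were higher and 1 lower (median 0.05), 8 and 4 after the correction, and 4 and 0 without delta27-BCL7A replicate 2. EIF1AX, which scans for the start codon, rose from 90.4 and 92.0 CPM to 127 and 134 CPM (log2 fold change 0.52, SE 0.05, edgeR adjusted p = 3.48e-09). EIF3J, a loosely bound subunit of initiation factor 3, rose from 132 and 129 CPM to 166 and 165 CPM. Both have transcripts of low GC content (35.1% and 38.8%), and their fold changes were 0.23 and 0.19 after the correction.

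**Figure D2:**
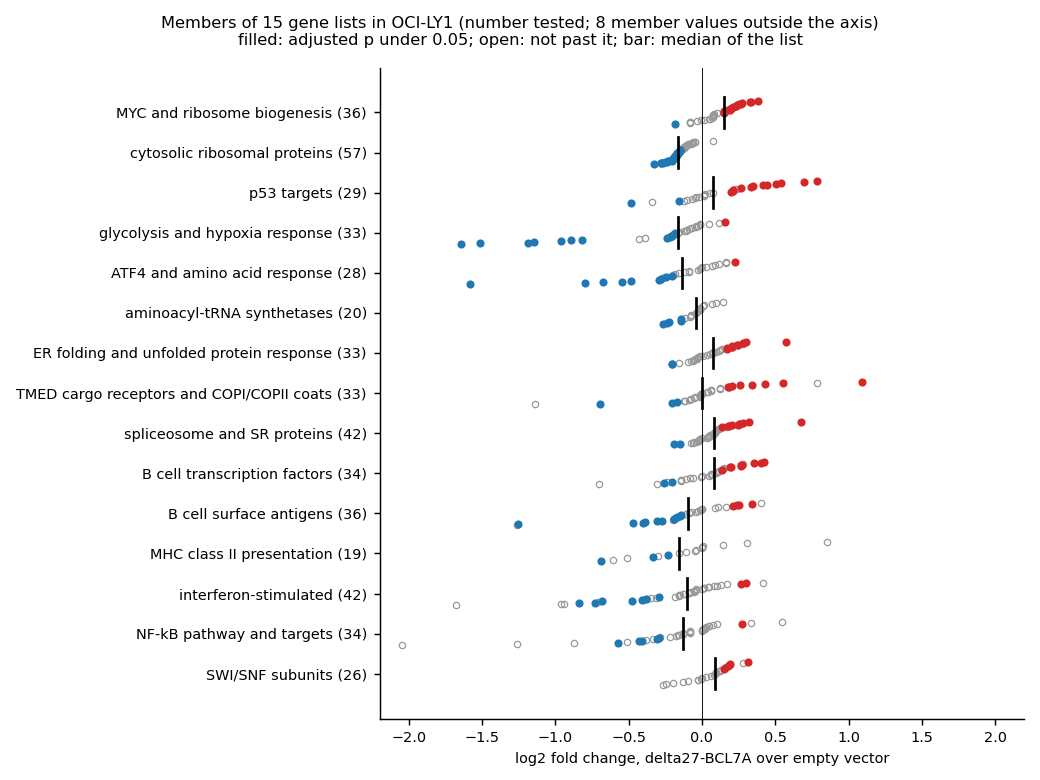
Log2 fold change of delta27-BCL7A over empty vector for each tested member of 15 gene lists; filled red and blue points passed the threshold, open points did not, vertical bars are list medians and 8 values lie outside the axis. The ribosome biogenesis median lies at 0.15 and that of the ribosomal proteins at -0.16, while in the glycolysis and hypoxia list 13 members fell and 1 rose.

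The early secretory pathway takes new proteins into the endoplasmic reticulum, trims and glycosylates them and sorts them into vesicles. Of 33 genes of folding and the unfolded protein response, 10 were higher and 2 lower (median 0.08), 9 and 3 after the correction, with 3 higher without delta27-BCL7A replicate 2 and 4 without empty vector replicate 2. Of 33 cargo receptors and vesicle coat subunits, 8 were higher and 3 lower (median 0.00), 5 and 4 after the correction, and 5 and 3 without delta27-BCL7A replicate 2. SPCS3, a signal peptidase subunit, rose from 138 and 130 CPM to 195 and 202 CPM (log2 fold change 0.57, SE 0.05, edgeR adjusted p = 4.34e-10). TMED5, a second p24 cargo receptor, rose from 66.2 and 63.1 CPM to 87.1 and 103 CPM. LMAN1, the receptor that carries coagulation factors out of the endoplasmic reticulum, rose from 133 and 123 CPM to 158 and 167 CPM. SEC31B, a COPII coat subunit, went the other way, from 22.7 and 19.1 CPM to 13.1 and 12.7 CPM (-0.69, SE 0.10, edgeR adjusted p = 4.52e-06).

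TMED7, of the second list, and SRP9 and IER3IP1, outside both lists, gave larger rises. SRP9 (chr1:225777813-225790466, plus strand) is a subunit of the signal recognition particle that halts translation of secreted proteins. It measured 100 and 104 CPM with empty vector and 191 and 212 CPM with delta27-BCL7A, a 1.98-fold rise (log2 fold change 0.98, SE 0.06, edgeR adjusted p = 6.19e-15). TMED7 (chr5:115613508-115632992, minus strand), a cargo receptor of the p24 family, rose 2.13-fold, from 16.01 and 15.6 CPM to 31.3 and 36.1 CPM (1.09, SE 0.10, edgeR adjusted p = 5.47e-08). IER3IP1, a small protein of the endoplasmic reticulum, rose from 19.99 and 21.2 CPM to 36.7 and 42.2 CPM. The groups of all 3 lay well apart, their transcripts have 37.1% to 37.6% GC, and after the correction the fold changes were 0.80, 0.89 and 0.72. Reads that TMED7 shares with its read-through transcript, and SRP9 with its copies, may be counted to neither or to either.

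ALG10B and CASD1, both enzymes of glycan assembly outside the lists, also rose. ALG10B, which adds the last glucose to the lipid-linked oligosaccharide, measured 16.5 and 16.1 CPM with empty vector and 25.03 and 30.8 CPM with delta27-BCL7A. CASD1, the sialic acid O-acetyltransferase, measured 38.8 and 40.5 CPM and then 64.3 and 73.7 CPM (log2 fold change 0.80, SE 0.07, edgeR adjusted p = 2.42e-10). The ALG10B fold change of 0.78 was 0.38 after the correction, with a transcript of 33.3% GC. Among 29 heat shock genes and chaperones, 5 rose and 1 fell, 8 and 1 after the correction, and 2 and 0 without delta27-BCL7A replicate 2. HSPA1B, an inducible HSP70, rose from 11.3 and 11.9 CPM to 16.3 and 15.5 CPM (0.45, SE 0.11, edgeR adjusted p = 0.00271), with reads it may share with its near-identical neighbour HSPA1A.

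Among 42 genes of RNA splicing, 10 rose and 2 fell (median 0.08), 14 and 4 after the correction, with 6 higher without delta27-BCL7A replicate 2. SRSF1, an SR protein that activates splice sites, rose 1.60-fold, from 231 and 228 CPM to 355 and 379 CPM (log2 fold change 0.68, SE 0.05, edgeR adjusted p = 2.91e-12). TRA2B, a second exonic enhancer-binding protein, rose from 520 and 513 CPM to 609 and 624 CPM. Neither gene's groups overlapped.

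Of the 35 chromatin modifiers mutated in lymphoma, 3 were higher and 3 lower, 6 and 5 after the correction, and 1 and 0 without delta27-BCL7A replicate 2. Before the correction and with all libraries, both shares were near those over all genes, 10.4% higher and 9.16% lower. BMI1, of Polycomb repressive complex 1 and outside this list, rose from 10.2 and 10.3 CPM to 18.4 and 20.2 CPM (log2 fold change 0.91, SE 0.10, edgeR adjusted p = 1.29e-08). SUZ12, of Polycomb repressive complex 2 and a member of the list, rose from 117 and 121 CPM to 153 and 167 CPM (0.42, SE 0.05, edgeR adjusted p = 2.24e-07).

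Among 34 transcription factors of the B cell lineage, 9 rose and 2 fell (median 0.08), 11 and 3 after the correction, with 5 rising without empty vector replicate 1 or without delta27-BCL7A replicate 2. FOXO1, a factor of the germinal centre dark zone, rose from 145 and 156 CPM to 195 and 203 CPM (log2 fold change 0.40, SE 0.05, edgeR adjusted p = 1.20e-06). RUNX1, a haematopoietic core-binding factor, rose from 39.1 and 43.2 CPM to 55.4 and 54.9 CPM. STAT6, which carries interleukin 4 signals, fell from 274 and 279 CPM to 234 and 227 CPM (-0.26, SE 0.05, edgeR adjusted p = 9.53e-05).

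Of 36 B cell surface antigens, 4 were higher and 11 lower, with a median of -0.10, and after the correction 3 were higher and 7 lower, with a median of 0.00. Without delta27-BCL7A replicate 2, 1 was higher. The lower count was 2 without empty vector replicate 1 and 4 without either delta27-BCL7A replicate. FCRL3, an Fc receptor-like inhibitory receptor, fell from 108 and 100 CPM to 74.7 and 75.2 CPM (log2 fold change -0.47, SE 0.08, edgeR adjusted p = 0.000337). CD24, a glycosylphosphatidylinositol-anchored antigen, rose from 328 and 335 CPM to 407 and 434 CPM (0.34, SE 0.05, edgeR adjusted p = 1.05e-06). MS4A1, the CD20 antigen, measured 613 and 600 CPM with empty vector and 692 and 753 CPM with delta27-BCL7A. Its call (0.25, SE 0.05) was lost without delta27-BCL7A replicate 2 (edgeR adjusted p = 0.0599), and the fold change was 0.06 after the correction.

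Receptor signalling and tissue-homing genes gave single changes. LYN, the Src-family kinase of the B cell receptor, rose from 249 and 270 CPM to 318 and 328 CPM, in a list with 5 of 33 higher and 1 lower, 9 and 2 after the correction, and 1 and 0 without delta27-BCL7A replicate 2. GNA13, the G protein that confines germinal centre B cells, rose from 157 and 165 CPM to 211 and 226 CPM (log2 fold change 0.44, SE 0.05, edgeR adjusted p = 4.44e-08). ITGA4, an integrin chain used for homing, rose from 128 and 125 CPM to 155 and 167 CPM. MZB1, an endoplasmic reticulum chaperone of antibody-secreting cells, fell from 212 and 198 CPM to 168 and 164 CPM, in a list of activated B cell and plasma cell markers with 5 of 19 lower and 1 higher, 4 and 0 after the correction, and 2 and 1 without delta27-BCL7A replicate 2. All 4 genes kept separate groups.

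Both chains of HLA-DM, the peptide-loading factor of MHC class II, fell. HLA-DM swaps the invariant chain remnant for antigenic peptide. The promoter of HLA-DMA is printed with CCAAT, the box bound by NF-Y that class II promoters share, in capitals on either strand.

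HLA-DMA: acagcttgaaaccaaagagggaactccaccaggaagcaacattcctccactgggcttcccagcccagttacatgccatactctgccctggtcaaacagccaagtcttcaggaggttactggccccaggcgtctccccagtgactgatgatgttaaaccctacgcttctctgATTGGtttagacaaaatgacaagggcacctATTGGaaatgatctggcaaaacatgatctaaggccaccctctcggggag

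This RefSeq sequence (GRCh38.p14, chr6:32953098-32953347, minus strand) holds 2 matches, and 13 of 16 promoters of the list held at least 1 (81.2%), against 35.7% of the protein-coding genes tested. HLA-DMA measured 21.9 and 21.9 CPM with empty vector and 14.3 and 12.9 CPM with delta27-BCL7A (log2 fold change -0.69, SE 0.08, edgeR adjusted p = 1.63e-07). HLA-DMB fell from 22.4 and 21.3 CPM to 17.1 and 17.4 CPM (-0.34, SE 0.08, edgeR adjusted p = 0.00198). Of 19 class II genes tested, 4 were lower and none higher (median -0.16), 3 after the correction and 2 without delta27-BCL7A replicate 2, so most did not pass the test. One of the 4, HLA-DOA, held 1 and 5 reads with empty vector and 0 and 0 with delta27-BCL7A, too few to give a fold, and passed the filter on low counts through VAL, where it was at 105 and 103 CPM with empty vector. For the class I counts that follow, the shares over all genes were 9.16% lower and 10.4% higher. HLA-E, a non-classical class I molecule, fell from 27.1 and 23.1 CPM to 16.9 and 16.8 CPM, in a class I list with 2 of 18 lower and 1 higher, 2 and 3 after the correction, and 1 and 0 without delta27-BCL7A replicate 2.

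Of 42 interferon-stimulated genes, 7 were lower and 2 higher (median -0.11), and of 34 NF-kB pathway genes and targets, 5 were lower and 1 higher (median -0.13). After the correction 9 were lower and 1 higher in the first list and 5 and 2 in the second (median -0.04). Without delta27-BCL7A replicate 2, 3 were lower and none higher in both lists, and without empty vector replicate 1 the lower counts were 3 and 2. STAT2, a subunit of the interferon-activated factor ISGF3, fell from 56.0 and 50.4 CPM to 41.0 and 39.1 CPM (log2 fold change -0.41, SE 0.06, edgeR adjusted p = 1.16e-05). IFITM2, which blocks viral entry, fell 1.79-fold, from 6.33 and 6.03 CPM to 3.43 and 3.47 CPM (-0.84, SE 0.14, edgeR adjusted p = 4.76e-05). TRAF1, an adaptor induced by NF-kB, fell from 16.9 and 13.6 CPM to 10.9 and 9.65 CPM. The groups of these 3 genes did not overlap.

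Of 65 nuclear genes of oxidative phosphorylation, 13 were lower and 4 higher (median -0.08). After the correction 10 were lower and 10 higher, with a median of -0.02, and without delta27-BCL7A replicate 2 the counts were 5 and 4. Leaving out 1 library gave 3 to 7 lower. CYCS, which encodes cytochrome c and lies outside this list, rose from 343 and 343 CPM to 504 and 537 CPM (log2 fold change 0.60, SE 0.05, edgeR adjusted p = 3.96e-11). SDHD, a membrane anchor of complex II, rose from 176 and 190 CPM to 246 and 255 CPM. NDUFC2, a complex I subunit that shares exons with a read-through gene, rose from 22.4 and 22.7 CPM to 31.3 and 32.8 CPM. None of their groups overlapped.

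The 32 genes of cholesterol synthesis and SREBP targets gave 6 higher and 6 lower, 6 and 4 after the correction, and 3 and 4 without delta27-BCL7A replicate 2. IDI1, of isoprenoid synthesis, rose from 241 and 230 CPM to 299 and 319 CPM (log2 fold change 0.39, SE 0.05, edgeR adjusted p = 8.00e-07), and MSMO1, of sterol synthesis, from 134 and 131 CPM to 164 and 169 CPM. FADS1, the delta-5 fatty acid desaturase, fell from 53.6 and 50.4 CPM to 38.7 and 39.5 CPM. Of 12 genes of the liver X receptors and sterol efflux, 3 fell (3 after the correction, 2 without delta27-BCL7A replicate 2), among them NR1H2 (the receptor LXR beta), from 37.3 and 38.7 CPM to 28.8 and 28.4 CPM, and ABCA7, a lipid transporter, from 142 and 141 CPM to 109 and 96.4 CPM.

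Of 41 S phase genes 4 were higher and none lower, a share near the 10.4% of all genes that were higher, and the counts were 11 and 1 after the correction and 3 and 0 without delta27-BCL7A replicate 2. Of 37 genes of G2 and mitosis 8 were higher and 1 lower, 9 and 5 after the correction, and 6 and 0 without that replicate. RRM2, the S phase ribonucleotide reductase subunit, rose from 369 and 383 CPM to 453 and 454 CPM, and RFC3, a clamp loader subunit, from 92.3 and 95.4 CPM to 117 and 128 CPM. CCNA2, cyclin A2, rose from 161 and 165 CPM to 196 and 202 CPM. MAD2L1, of the spindle checkpoint, rose from 98.5 and 99.5 CPM to 132 and 141 CPM (log2 fold change 0.46, SE 0.05, edgeR adjusted p = 1.97e-08). Of 22 TGF-beta pathway genes 7 were higher and 1 lower, and 4 and 1 both after the correction and without delta27-BCL7A replicate 2. Among the higher were the receptor TGFBR1, from 88.2 and 81.3 CPM to 109 and 119 CPM, and SMAD4, from 66.9 and 61.7 CPM to 79.7 and 79.7 CPM.

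Outside the lists, some of the strongest changes were in genes of varied function. WNT10A (chr2:218880363-218899581, plus strand), a secreted Wnt ligand, fell 2.35-fold, from 7.54 and 7.66 CPM to 3.22 and 3.26 CPM (log2 fold change -1.23, SE 0.13, edgeR adjusted p = 1.95e-08). PPFIA4, a liprin, fell from 8.09 and 6.66 CPM to 2.16 and 3.05 CPM, and ANXA2, a calcium-dependent membrane protein, from 4.90 and 3.56 CPM to 1.91 and 1.52 CPM. CEACAM1, an inhibitory adhesion receptor, fell from 4.78 and 3.64 CPM to 1.61 and 2.16 CPM. Groups that do not overlap were a condition for naming these 4 genes.

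At higher level, NLRP7, a NOD-like receptor, fell from 155 and 149 CPM to 116 and 112 CPM, and the fructose transporter SLC2A5 from 245 and 233 CPM to 186 and 178 CPM. GSDMB, a gasdermin, fell from 40.7 and 38.3 CPM to 26.7 and 27.3 CPM (log2 fold change -0.55, SE 0.07, edgeR adjusted p = 4.91e-07). Rises of the same rank were in GMFB, an actin regulator, from 71.0 and 70.7 CPM to 127 and 136 CPM (0.89, SE 0.06, edgeR adjusted p = 2.99e-13), and in CD164, a sialomucin, from 142 and 140 CPM to 219 and 234 CPM. TPD52, a vesicle trafficking protein, rose from 180 and 184 CPM to 286 and 306 CPM, LRRC58 from 63.2 and 65.1 CPM to 104 and 114 CPM, and SGPP1, which dephosphorylates sphingosine 1-phosphate, from 44.3 and 45.5 CPM to 72.0 and 76.6 CPM. GMFB has a transcript of 33.4% GC and a fold change of 0.52 after the correction.

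Wild-type BCL7A at the same level gave a reference for the mutation. The mutant and wild-type libraries differed in 521 of 17057 genes (3.05%), 235 higher (1.38%) and 286 lower (1.68%) with delta27-BCL7A, and this count was 75 without delta27-BCL7A replicate 2 and 113 or 137 without wild-type replicate 1 or 2. This comparison shares the delta27-BCL7A libraries with the one above, so the 2 sets of calls are not independent. After the GC and length correction 660 genes were called, 290 higher and 370 lower, and 366 of the 521 kept their call. Across 12618 genes the difference correlated with GC content at -0.385 (Spearman), and the part of GC content in it was not tested.

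SRP9 was at 166 and 173 CPM with the wild type, between the empty vector and the mutant libraries (mutant minus wild type 0.25, SE 0.05, edgeR adjusted p = 0.00721). The call was lost without delta27-BCL7A replicate 2 (edgeR adjusted p = 0.372) and without wild-type replicate 1 (0.167). CYCS lay at 413 and 439 CPM with the wild type (0.29, edgeR adjusted p = 0.000339), GMFB at 106 and 106 CPM (0.31, edgeR adjusted p = 0.0012) and SRSF1 at 309 and 318 CPM (0.23, edgeR adjusted p = 0.0049). Without wild-type replicate 1 the edgeR adjusted p was 0.0542 for CYCS and 0.143 for SRSF1, and without delta27-BCL7A replicate 2 it was 0.103 for GMFB and 0.246 for SRSF1. The transcripts of these 4 genes have 33.4% to 41.6% GC, and the wild-type libraries also had intermediate correlations with GC content (0.07 and -0.11). In these 4 genes all wild-type libraries lay between the other groups, and the part of GC content in this order was not tested. TMED7 lay there too, at 24.3 and 24.5 CPM, but its difference of 0.47 (edgeR adjusted p = 0.00829) was no longer called without wild-type replicate 1 or 2 (0.114 and 0.0938) or delta27-BCL7A replicate 2 (0.274). LMAN1, at 138 and 136 CPM, was also below the mutant libraries (0.25, edgeR adjusted p = 0.00523), a call lost without either wild-type replicate or delta27-BCL7A replicate 2 (0.0689 to 0.205).

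IFITM2 measured 6.11 and 5.91 CPM with the wild type and 3.43 and 3.47 CPM with the mutant (log2 difference -0.80, SE 0.15, edgeR adjusted p = 0.00107). FCRL3 was at 119 and 120 CPM with the wild type, above the empty vector libraries, and at 74.7 and 75.2 CPM with the mutant, below them (-0.67, edgeR adjusted p = 7.54e-05). LGALS9, which encodes galectin-9, showed the same order, at 7.65 and 8.30 CPM with the wild type, 4.74 and 4.65 CPM with empty vector and 3.26 and 4.10 CPM with the mutant, and its mutant difference from empty vector did not pass the test (edgeR adjusted p = 0.105).

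DIRAS1 (chr19:2714567-2721418, minus strand), a small GTPase of the Ras family, was at 18.7 and 20.01 CPM with empty vector, 14.95 and 14.1 CPM with the mutant and 6.54 and 6.95 CPM with the wild type (1.11, SE 0.12, edgeR adjusted p = 5.61e-07). PHYH, the peroxisomal phytanoyl-CoA hydroxylase, was at 6.83 and 8.46 CPM, 7.84 and 7.83 CPM, and 3.72 and 3.69 CPM in the same order (1.08, edgeR adjusted p = 3.20e-06). For PHYH the mutant did not differ from empty vector beyond the spread, with a log2 difference of 0.04 and a 95% interval from -0.19 to 0.26.

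In VAL, BCL7A went from 291 and 283 CPM to 490 and 485 CPM (log2 fold change 0.76), so the effect on BCL7A was 1.13 lower on the log2 scale than in OCI-LY1 (edgeR adjusted p = 2.31e-14). VAL had 875 genes past the threshold (5.13%), 2.5% of all genes tested being higher and 2.63% lower, and 505 genes were called in both lines, which is 15.1% of the OCI-LY1 calls and 57.7% of the VAL calls. Of the 505, 273 were higher in both, 227 lower in both and 5 opposite. Line and day of collection cannot be told apart.

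The difference between the lines passed its own test in 258 genes (1.51%), 48 with a more positive and 210 with a more negative effect in VAL. This count was 24 without OCI-LY1 delta27-BCL7A replicate 2, 99 to 120 without either OCI-LY1 empty vector library, VAL empty vector replicate 1 or VAL delta27-BCL7A replicate 2, and 578 without VAL empty vector replicate 2. After the GC and length correction 211 genes passed, 69 with a more positive and 142 with a more negative effect in VAL. Of the 258 calls 122 were kept, and the part of GC content was not tested. SRP9 moved from 295 and 260 CPM to 314 and 307 CPM in VAL, a log2 fold change of 0.16 against 0.98 in OCI-LY1 (difference -0.82, edgeR adjusted p = 1.58e-08). WNT10A moved from 54.4 and 59.3 CPM to 48.4 and 48.0 CPM there (-0.24 against -1.23, difference 0.99, edgeR adjusted p = 0.000204). The opposite calls included IDI1 (VAL -0.19, OCI-LY1 0.39), MSMO1 (-0.33 and 0.33) and MS4A1 (-0.19 and 0.25), each with a difference past the threshold, beside SQLE and KIAA0930. Of the 32 cholesterol synthesis genes, 19 were lower and none higher in VAL, against 2.63% of all genes, and 12 had a more negative effect there than in OCI-LY1, against 1.23% of all genes. PFKFB4, which fell in OCI-LY1, moved from 3.64 and 3.68 CPM to 2.03 and 2.51 CPM in VAL (-0.69, edgeR adjusted p = 0.0558), and the difference between the lines did not pass the test (0.46, edgeR adjusted p = 0.463).

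**Figure D3:**
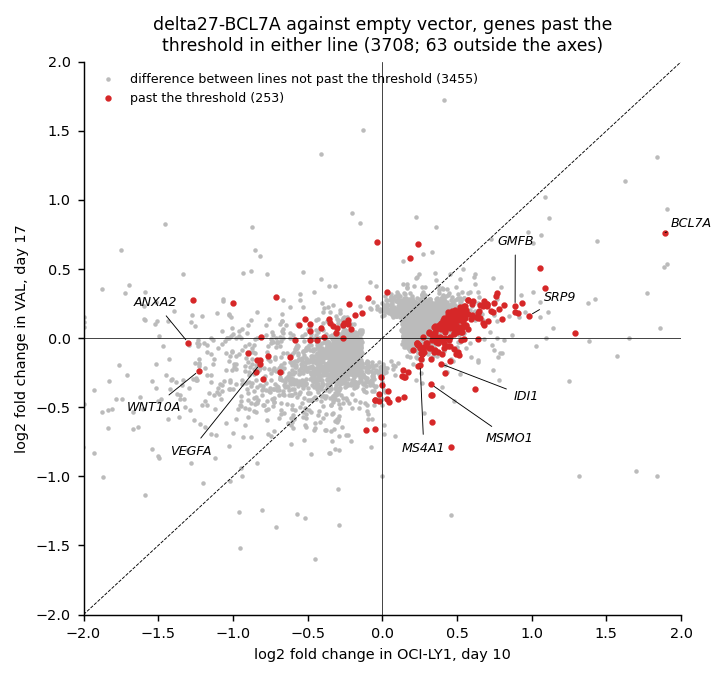
Log2 fold change of delta27-BCL7A over empty vector in OCI-LY1 (horizontal, day 10) and VAL (vertical, day 17) for the 3708 genes past the threshold in either line, with 63 outside the axes; red marks the 253 of them whose difference between lines passed its test and the dashed line marks equal effects. BCL7A lies at 1.89 and 0.76, and SRP9 and GMFB lie far to the right of the dashed line.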

How the data were processed

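RNA-seq counts per gene were used as the authors deposited them, whole reads per Ensembl gene identifier. Per the submitters' processing notes, the tools named are STAR 2.6.1b, HTSeq 0.11.2 and R 3.6.1, with the build GRCh38, and the annotation release and the strand setting of the counting are not given in the sources used here. Rows that name no gene stayed out of library sizes. Totals were 21839547 to 24935893 reads in genes per library.

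Counts of all 12 libraries, 2 in each of 6 groups, were fitted with edgeR 4.0.16 (R 4.3.3): TMM scaling, filterByExpr with a minimum count of 10, a robust quasi-likelihood fit of group means, and Benjamini-Hochberg adjustment over 17057 genes at 0.05. The residual degrees of freedom among samples were 6. An exact permutation test of 2 against 2 cannot go below p = 0.333. GC content and length came from the longest transcript in GENCODE 29, known for 98.9% of genes tested, and the correction for both was a spline with 5 degrees of freedom per library, used as an offset. Alternatives were DESeq2 1.42.0, limma 3.58.1 (voom), other scalings and filters, a replicate block and leaving out each library. On simulated data for this comparison (16727 genes) edgeR recovered 95 of 100 genes changed 1.5-fold and 99 of 100 changed 2-fold, and called 9 unchanged genes. The simulation drew all OCI-LY1 libraries from the empty vector means, without a GC or length trend. It changed only genes above a minimum expected count. Its count of wrong calls therefore does not carry over to the real libraries.

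Named genes are BCL7A, the 15 largest protein-coding changes in each direction with at least 1 CPM and no overlap, the 10 smallest p-values in each direction among genes that kept their call after the correction, up to 4 members of each of 45 gene lists by p, the 8 largest differences from the wild type and the 6 largest between lines, in each direction, of which a selection is described and some are not reported here. SQLE, KIAA0930 and MYC, and the promoters printed, were chosen after their values were seen. The members and lists were chosen with earlier results of these data known. Some members counted as tested had no read in any OCI-LY1 library and passed the filter through VAL. These were 2 of the NF-kB list and 2 of the B cell surface antigens. The ATF4 list, the activated B cell and plasma cell list and the ERK list held 1 each. Promoters (250 bases before the start) are from RefSeq, GRCh38.p14. Motifs were searched on both strands, overlaps included: the hypoxia core (ACGTG), the ATF4 element core (TGATGNAA), the CCAAT box and the heat shock element pair (GAANNTTC).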

Additional observations from a re-analysis of the deposited data

Results flagged for a closer look

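The effect of delta27-BCL7A over empty vector differed between VAL and OCI-LY1, by the edgeR quasi-likelihood test of the difference itself, for 36 of the genes described. Each value below is the log2 fold change in VAL minus that in OCI-LY1, so a negative value means a more positive effect in OCI-LY1. BCL7A itself differed by -1.13, with the gene at 291 and 283 CPM in VAL with empty vector against 155 and 157 CPM in OCI-LY1.

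Among p53 targets and BCL2 family genes, the differences were ZMAT3 (-0.452), MDM2 (-0.322) and PMAIP1 (-0.288). In the hypoxia and amino acid groups they were VEGFA (0.63), DDIT4 (0.504), SESN2 (0.587) and AARS1 (0.261), all of them falls in OCI-LY1. In the secretory pathway and glycan assembly all were negative, with SRP9 (-0.821), TMED7 (-0.726), TMED5 (-0.409), IER3IP1 (-0.679), SPCS3 (-0.293), ALG10B (-0.564) and CASD1 (-0.659). Immune and adhesion genes gave HLA-DMA (0.446), IFITM2 (0.683), MS4A1 (-0.447), GNA13 (-0.287), ITGA4 (-0.302) and ANXA2 (1.27). Genes of sterol synthesis, mitosis and mitochondria gave IDI1 (-0.58), MSMO1 (-0.662), MAD2L1 (-0.268), SDHD (-0.383), NDUFC2 (-0.606) and CYCS (-0.352). IDI1, MSMO1 and MS4A1 had opposite calls in the 2 lines. Further genes were BMI1 (-0.726), SRSF1 (-0.441), GMFB (-0.657), CD164 (-0.585), TPD52 (-0.472), LRRC58 (-0.444) and SGPP1 (-0.532), together with WNT10A (0.991) and NLRP7 (0.483).

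The effect of leaving out 1 library was read by gene for only some of these differences, so nothing is said on the others. Among those read, the call was lost for VEGFA without VAL delta27-BCL7A replicate 2 (difference 0.45). It was lost for MDM2 without OCI-LY1 empty vector replicate 1 or delta27-BCL7A replicate 2 (-0.31 and -0.30). For HLA-DMA it was lost without any of 6 single libraries (0.37 to 0.45). These genes were chosen for their change in OCI-LY1, so that a smaller effect in VAL is no independent finding, and line and day of collection cannot be told apart.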

How the results depend on the processing

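The 3338 calls between delta27-BCL7A and empty vector became 753 when tested against a log2 fold change of 0.2 and 1154 with the GC and length correction and without delta27-BCL7A replicate 2, an alternative chosen after seeing the data. Leaving out 1 library gave 1265 (without delta27-BCL7A replicate 2) to 2964 (without delta27-BCL7A replicate 1). The other alternatives gave 2468 (DESeq2) to 4113 (OCI-LY1 alone). The 521 calls against the wild type became 323 with DESeq2, 73 against a log2 fold change of 0.2, 1086 in a fit of OCI-LY1 alone, and 75 to 517 when 1 library was left out. The 258 calls between the lines became 400 with no filter, 14 against 0.2, and 24 to 578 when 1 library was left out. The cause of these shifts was not tested.

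With the replicate number as a block the calls were 3260, 527 and 248, and with the block and the correction 2888, 727 and 247. The labels do not say whether a number is shared between constructs. Deviations of same-numbered libraries correlated at -0.045 to 0.032. This was taken over all genes tested, those with few reads included, so it does not settle whether libraries were paired. Small differences changed sign: BCL7A against the wild type was -0.0002435 with upper-quartile scaling, -0.0004795 with a minimum count of 50, and -0.009041 to 0.0288 when 1 library was left out, and ZMAT3 was -0.08186 to 0.00323. Of 112 gene results, 78 kept every call, and 95 did outside the test against 0.2. The share of calls on the higher side was 53.2%, 63.5% with DESeq2, 56.5% with RLE and 43.4% with upper-quartile scaling. Depth limits genes of a few reads, and 2 libraries a group limit every comparison.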

Other observations

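The 13 transcripts of the mitochondrial genome, which encode core subunits of the respiratory chain, were higher in 4 cases and lower in 1 with delta27-BCL7A in OCI-LY1 (median log2 fold change 0.06). In VAL 8 were higher and none lower, against 2.5% and 2.63% of all genes in that line. After the GC and length correction 6 were higher and none lower in OCI-LY1 (median 0.16). Their summed level there overlapped, at 45530.5 and 43565.8 CPM with empty vector and 43687.7 and 43219 CPM with delta27-BCL7A. Of 40 replication-dependent histone genes tested, 2 were higher and none lower in OCI-LY1, against 10.4% and 9.16% of all genes. Their summed level overlapped, at 120 and 132 CPM with empty vector and 130 and 139 CPM with delta27-BCL7A. The libraries read polyadenylated RNA, so histone transcripts that are not polyadenylated were not measured. Of 32 proteasome subunits, 1 was higher and none lower, and 6 were higher and 7 lower after the GC and length correction. DUSP6, a phosphatase that ERK signalling induces, measured 3.48 and 3.56 CPM with empty vector and 5.76 and 5.42 CPM with delta27-BCL7A (log2 fold change 0.67, edgeR adjusted p = 0.00165). Its list of ERK feedback and immediate early genes had 2 of 23 higher and 3 lower, near the 10.4% and 9.16% of all genes.

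In VAL, 14 of 41 S phase genes rose and none fell, against 4 and 0 in OCI-LY1, and interferon-stimulated genes were lower in 20 of 42 in VAL, against 7 in OCI-LY1. Over all genes tested, 2.5% were higher and 2.63% lower in VAL, and 10.4% higher and 9.16% lower in OCI-LY1. The difference between the lines itself passed its test for 1 of the S phase genes and 3 of the interferon-stimulated genes. Of these 3, 1 had a more positive effect in VAL and 2 a more negative one. Of 8 T cell, 2 NK cell and 1 myeloid gene that passed the filter on low counts, none passed the edgeR threshold in OCI-LY1. The promoters of heat shock genes held GAANNTTC, a pair of heat shock element units, in 7 of 26 cases (26.9%), against 4.02% of protein-coding genes tested.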
